A study of Oryza sativa with 4 samples.

Results

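BGIOSGA012710 to BGIOSGA013206 is a block of consecutive gene identifiers in which expression differences between the rice lines DC90 and 9311 gather. It was chosen by measured values: earlier counts of identifiers with a line difference of 1 sign at 0 h and at 36 h were among the highest along these numbers. The block spans 497 numbers, all 497 of which are listed in the expression table. Its members are the 269 identifiers that reached 1 FPKM (fragments counted on a gene, divided by the gene's length in kilobases and by the size of the library) in any of the 4 libraries, out of 24192 BGIOSGA identifiers that did so and 88509 identifiers in all. Of the 228 others, 151 were at 0 in all 4 libraries and 77 lay between 0 and 1. Members made up 54.1% of the block's identifiers, and 59.4% of the 40248 BGIOSGA identifiers elsewhere reached the same limit. Gene names, functions and chromosome positions for these identifiers are not given by the sources used. Whether neighbours in number are neighbours on a chromosome was therefore not examined, and no gene role or sequence is given.

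DC90 is a chromosome substitution line that tolerates chilling, and 9311, also named YD6, is its recurrent parent and sensitive to chilling. Whole plants of both lines were taken as seedlings at the 3-leaf stage, before chilling (0 h) and at 36 h of chilling. For each of the 4 groups, RNA from 3 replicates was mixed into 1 library, so no value has a replicate error, no test between groups was possible, and "higher" and "lower" describe these 4 libraries. The sources used here give neither the donor of the substituted segments nor the chilling temperature. No library came from unchilled seedlings at 36 h, so chilling cannot be told apart from age or time of day.

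A substitution line is made by crossing a donor to a recurrent parent and crossing back repeatedly, so that most of its genome comes from the parent and the donor's DNA persists in a few segments. Genes inside such a segment can differ from the parent in regulatory sequence, in coding sequence or in presence. Rice comes from warm climates, and seedlings exposed to chilling lose photosynthetic capacity and reset the transcript levels of a large part of their genes.

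Library totals recovered from the steps of the values lay between 10580163 and 11800685 reads. Counted in the library where each was deepest, the members' median was 185 reads, and their median recovered length was 972 bases, against 211 reads and 1026 bases for the 23923 other BGIOSGA identifiers measured. Their median level was 9.30 FPKM in DC90 and 11.3 in 9311 at 0 h, and 10.1 in DC90 and 9.004 in 9311 at 36 h. The other identifiers had medians of 11.9 and 11.9 at 0 h and of 12.1 and 11.7 at 36 h, in the same order of lines. Fewer than 20 reads in every library lay behind 32 members, or 11.9%, against 8.97% elsewhere. Just above the limit of 1 FPKM stood BGIOSGA013084 with a highest value of 1.01 and BGIOSGA013144 with 1.04. Just below it stood BGIOSGA013115 with 0.999 and BGIOSGA012805 with 0.988.

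Before chilling, 45 of the 257 members measured in either line were at least 2-fold apart between the lines, 18 higher and 27 lower in DC90. An identifier passed the size rule when log2((FPKM + 1)/(FPKM + 1)) reached 1 in size and 1 of the compared libraries, or both, had 1 FPKM or more. These are 7.004% higher and 10.5% lower, beside 1.59% and 1.87% of all 22919 BGIOSGA identifiers measured at 0 h. The block was chosen on these contrasts, so this excess is a description and nothing is read from it. The log2 line ratio ran from -4.81 to 7.22, with a median of -0.05 in the members and 0.01 in all BGIOSGA identifiers. Its median size, without sign, was 0.31 in the members and 0.20 in all. In RNA of whole plants, fewer cells expressing a gene and less RNA per cell cannot be told apart.

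After 36 h of chilling, 51 of 245 measured members were past the size rule, 23 higher and 28 lower in DC90. These are 9.39% and 11.4%, beside 1.82% higher and 3.61% lower among all 22603 BGIOSGA identifiers measured at 36 h. In all BGIOSGA identifiers the lower ones outnumbered the higher ones by 817 to 412, whereas in the block the counts of both directions were close. The median log2 line ratio was 0.06 in the members and 0.06 in all. Beyond 4-fold there were 9 members higher and 11 lower in DC90 at 36 h, or 8.16% of those measured, beside 0.845% of all BGIOSGA identifiers. At 0 h there were 8 and 12, or 7.78%, beside 0.593%.

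**Figure D1:**
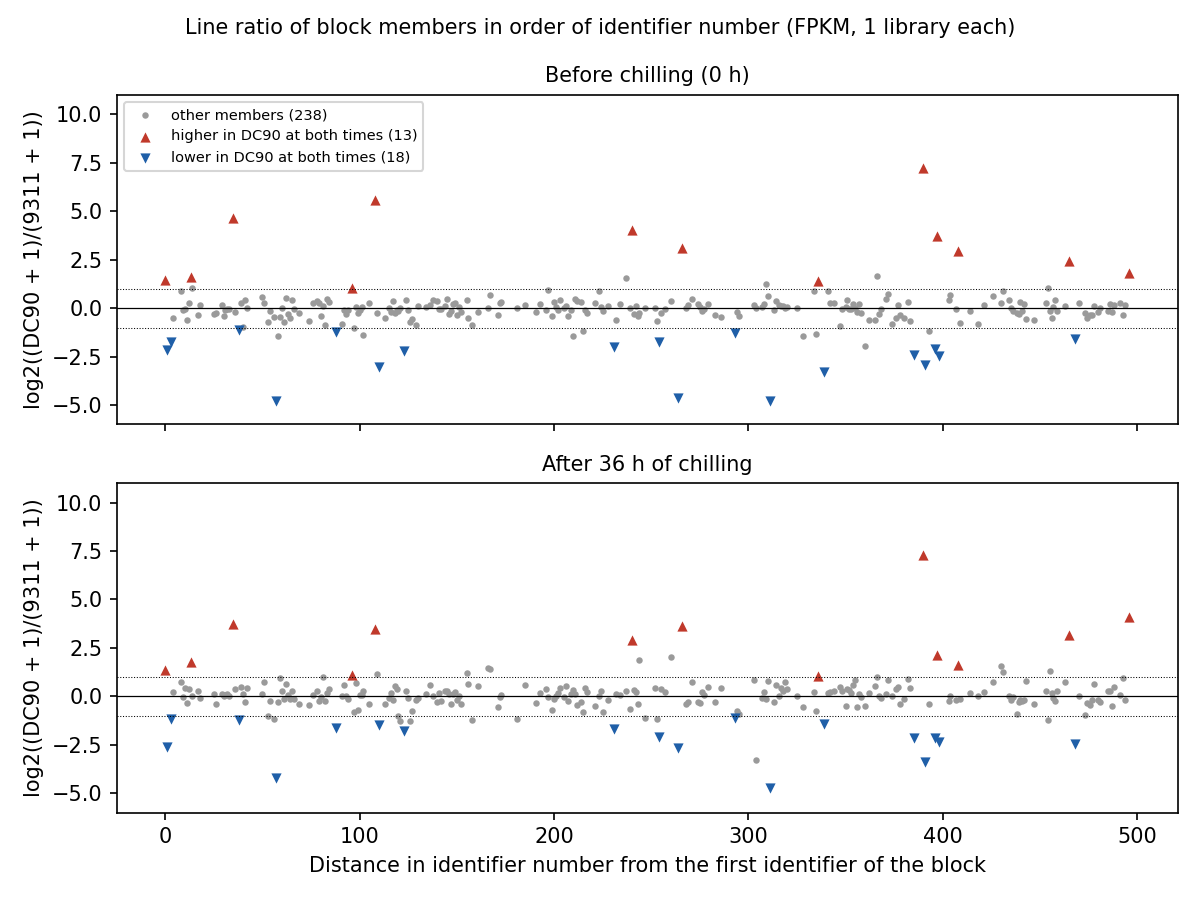
Log2 ratio of DC90 over 9311 (FPKM + 1; 1 library per line and time) for the 269 members, by distance in identifier number from the first identifier of the block, at 0 h (top) and 36 h (bottom). Triangles mark the 13 members higher and the 18 lower in DC90 at both times, dotted lines mark 2-fold, and higher and lower members are interspersed along the numbers.

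At both times and in the same direction, 31 members were past the rule, 13 higher and 18 lower in DC90. This is 4.83% higher and 6.69% lower, beside 0.401% and 0.546% of all 24192 BGIOSGA identifiers. The 31 are 13.5% of the 229 BGIOSGA identifiers that met this rule in the whole table, and the block holds 1.11% of the identifiers measured. Of the 18 members higher at 0 h, 13 stayed past the rule on the same side at 36 h, which are 72.2% of the first list and 56.5% of the second. Of the 27 lower at 0 h, 18 did, or 66.7% and 64.3%. Over all BGIOSGA identifiers, 97 of the 364 higher at 0 h and 132 of the 429 lower at 0 h did. The block was chosen for this agreement, so nothing is read from the gap. A further 13 members were past the rule at 0 h alone and 19 at 36 h alone, counts not made over all BGIOSGA identifiers. BGIOSGA013164, singled out after its values were seen, was past it in opposite directions, at 2.15 FPKM in DC90 and 0.533 in 9311 at 0 h and at 1.19 and 4.04 at 36 h, on 7 reads or fewer in each library. The 2 members just inside the limit for both times were BGIOSGA012806, with a smaller log2 ratio of 1.03, and BGIOSGA013046 with 1.05, and the 2 just outside were BGIOSGA013076 with 0.98 and BGIOSGA012868 with -0.89.

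The member farthest apart was BGIOSGA013100, which was at 165 FPKM in DC90 at 0 h and 175 at 36 h, and at 0.118 and 0.127 in 9311. Both 9311 values rest on 1 read, and the DC90 values on 1392 and 1332. DC90 was therefore 1403-fold higher at 0 h, with a 95% counting interval of 251 to 55448, and 1372-fold higher at 36 h, with an interval of 246 to 54247. The level in DC90 differed 1.06-fold between times (counting interval 0.982 to 1.14), so the line difference was present in full before chilling.

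BGIOSGA012745 was listed at 0 in both 9311 libraries and stood at 23.7 FPKM in DC90 at 0 h and at 12.3 at 36 h. With 9311 set at 3 reads per library, DC90 was at least 142-fold higher at 0 h and at least 68.3-fold higher at 36 h. BGIOSGA012818 was at 47.5 FPKM in DC90 and listed at 0 in 9311 at 0 h, and at 12.7 and 0.247 at 36 h. It was at least 69.5-fold higher in DC90 at 0 h with the same setting, and 51.5-fold higher at 36 h, where 9311 held 1 read (counting interval 8.83 to 2075). BGIOSGA013206, the last identifier of the block, was listed at 0 in both 9311 libraries and went in DC90 from 2.48 FPKM at 0 h to 16.3 at 36 h, at least 8.73-fold and 53.2-fold higher than 9311. BGIOSGA012710, the first, was also at 0 in both 9311 libraries and stood at 1.71 and 1.61 FPKM in DC90, from 20 and 17 reads.

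In the opposite direction, BGIOSGA013021 was listed at 0 in DC90 at 0 h and at 0.127 FPKM, from 1 read, at 36 h, while 9311 was at 27.0 and 28.7. It was at least 78.4-fold lower in DC90 at 0 h with DC90 set at 3 reads. At 36 h 9311 was 226-fold higher, with a counting interval of 40.2 to 8970. BGIOSGA012767 was at 0.261 FPKM in DC90, from 1 read, and at 33.7 in 9311 at 0 h, where 9311 was 129-fold higher with an interval of 22.7 to 5134. At 36 h it was listed at 0 in DC90 and at 17.4 in 9311, at least 20.1-fold lower in DC90. Counted reads of both were thus near or at the detection limit in the substitution line and clearly present in its parent. Whether DC90 reads of a differing sequence could be aligned is not known from the sources used here. A low count is therefore not shown to be a low transcript level.

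**Figure D2:**
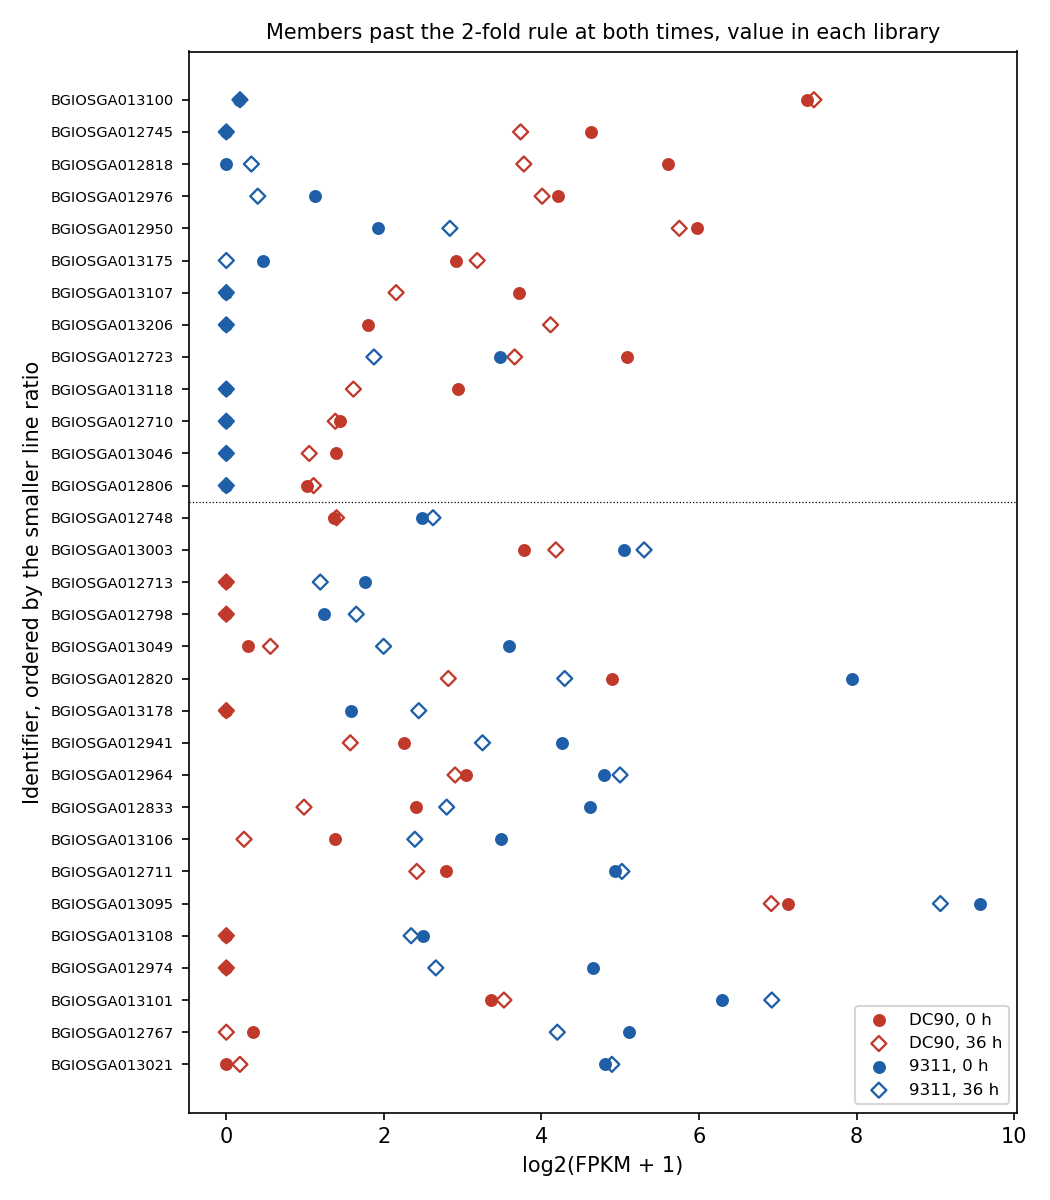
Log2(FPKM + 1) in each of the 4 libraries for the 31 members past the 2-fold rule at both times, 1 row per identifier, ordered by the smaller line ratio in size and direction. Above the dotted line are the 13 members higher in DC90 and below it the 18 lower, and in 30 of the 31 rows both values of one line lie above both values of the other, the exception being BGIOSGA012820.

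Many of the 31 were detected in 1 line alone. In 12 of them one line was at 0 in both its libraries, in 4 the lower line was at 0 in 1 of its libraries, and 15 were above 0 in all 4 libraries. Over all 269 members, 10 were listed at 0 in both DC90 libraries and 11 in both 9311 libraries. These are 3.72% and 4.09%, beside 0.397% and 0.331% of all BGIOSGA identifiers. Of those 10, 5 were past the rule at both times, and of those 11, 7 were. With 1 line at 0, the size rule is met exactly from 1 FPKM in the other line. By construction, the same 5 and 7 therefore reached 1 FPKM in both libraries of the other line. All these members passed the limit of 1 FPKM only through the other line, and the block was chosen on line differences. The excess over all BGIOSGA identifiers is therefore a description and nothing is read from it. The 31 had a median recovered length of 861 bases against 981 for the other 238 members, and a median highest value of 18.2 FPKM against 16.9. In 3 of the 31, fewer than 20 reads lay behind the highest value.

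Of the 15 members above 0 everywhere, 11 were lower and 4 higher in DC90. At least 5 FPKM in all 4 libraries was reached by 5 members, and all 5 were lower in DC90. The most abundant of the 31, BGIOSGA013095, singled out after its values were seen, was at 139 FPKM in DC90 and 754 in 9311 at 0 h, and at 120 and 534 at 36 h. It was 5.44-fold lower in DC90 at 0 h (counting interval 4.96 to 5.97) and 4.46-fold lower at 36 h (4.01 to 4.96). BGIOSGA012950, named in the same way, was at 62.1 FPKM in DC90 and 2.80 in 9311 at 0 h, and at 52.8 and 6.15 at 36 h. It was 22.1-fold higher in DC90 at 0 h and 8.59-fold higher at 36 h, from 37 and 75 reads in 9311.

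Higher and lower members were mixed along the numbers. Among the 30 pairs of successive identifiers of the 31, 18 pairs went opposite ways, and among the 7 pairs that lie 1 or 2 numbers apart, 6 did; these counts were not compared with another order of the same members. The examples that follow were chosen after their values were seen. BGIOSGA013101, next in number to BGIOSGA013100, was lower in DC90, at 9.29 FPKM against 77.0 in 9311 at 0 h and at 10.5 against 120 at 36 h. Counting intervals for its 8.29-fold and 11.5-fold differences were 6.94 to 9.97 and 9.64 to 13.7.

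The direction alternated over a run of successive numbers. BGIOSGA013106 was lower in DC90, at 1.60 FPKM against 10.2 in 9311 at 0 h and at 0.169 against 4.25 at 36 h. BGIOSGA013107 was higher in DC90, at 12.2 FPKM at 0 h and 3.45 at 36 h, and was listed at 0 in both 9311 libraries. BGIOSGA013108 was listed at 0 in both DC90 libraries and stood at 4.62 and 4.08 FPKM in 9311. The first and the second of these have the same recovered length of 1122 bases, and the third has 1191. Whether they are near-identical copies that could exchange reads is not known from the sources used here, so their separate values are uncertain.

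Line differences present at both times were fewer in the middle of the block. The numbers from BGIOSGA012710 to BGIOSGA012820 held 11 of the 31 among 68 members, or 16.2%, and those from BGIOSGA012941 to BGIOSGA013206 held 19 among 135, or 14.1%. Between them, 1 of 66 members, or 1.52%, was past the rule at both times. That member, named after its values were seen, was BGIOSGA012833, at 4.32 FPKM in DC90 and 23.6 in 9311 at 0 h and at 0.981 and 5.95 at 36 h. No further one followed for 108 numbers. At 36 h taken by itself the contrast was smaller, with 7 higher and 7 lower in the first stretch, 3 and 6 in the middle, and 13 and 15 in the second stretch. At 0 h these counts were 6 and 9, 0 and 3, and 12 and 15. In the 100 numbers before the block, 0 of 48 measured identifiers met the rule, and in the 100 after it 1 of 66. The ends of the block and of the emptier middle were set by these same counts.

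Across the 269 members, Pearson's r between the log2 line ratios at 0 h and 36 h was 0.82, and Spearman's rho was 0.52. Over the other 23923 BGIOSGA identifiers r was 0.30 and rho 0.06. The comparisons at 0 h and at 36 h share no library, but members of one block share their libraries and depth and are not independent replicates, and the block was chosen for agreement of this kind. With at least 5 FPKM in all 4 libraries, r was 0.65 over 142 members and 0.02 over 14043 other identifiers. Without the identifiers past the size rule at either time, r was 0.24 and rho 0.20 over 130 members, against -0.03 and -0.04 over 13650 others. Of those 130 members, 77, or 59.2%, had the same sign at both times, against 49.96% of the others. The median size of their log2 ratio was 0.23 at 0 h and 0.25 at 36 h, against 0.16 and 0.19 elsewhere. These values come from the contrasts that chose the block and are given as a description.

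**Figure D3:**
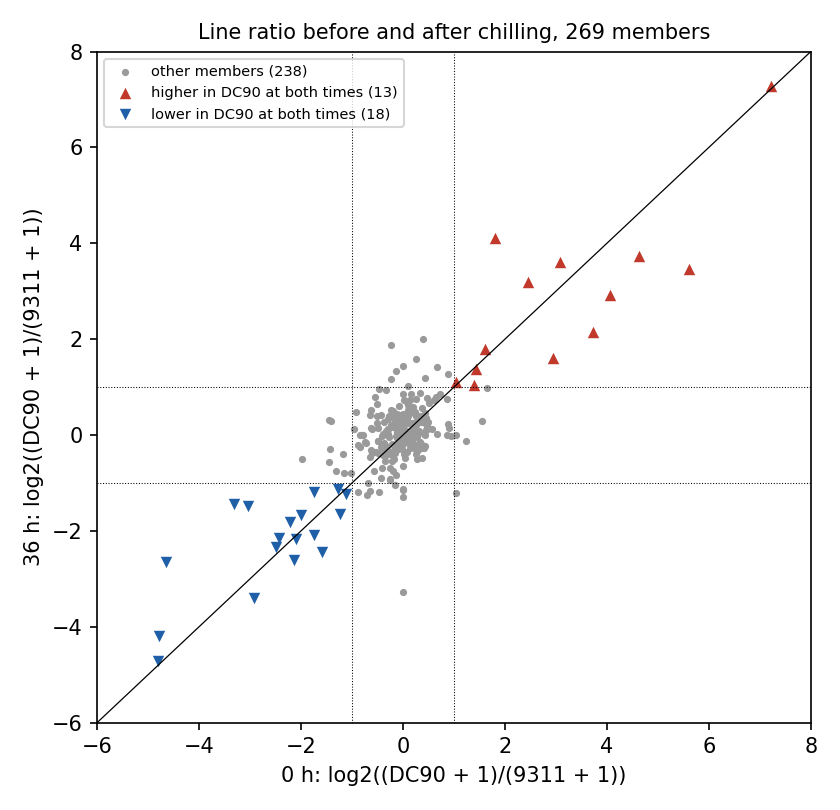
Log2 ratio of DC90 over 9311 (FPKM + 1) at 0 h (horizontal) and 36 h (vertical) for the 269 members, with the identity line and dotted lines at 2-fold. The 31 members past the rule at both times (triangles) stretch along the identity line from -4.81 to 7.22, while most of the other 238 lie within the dotted lines and 33 of them lie beyond these at 1 time, or at both in opposite directions.

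The chilling response, that is, the level at 36 h divided by the level at 0 h of the same line, was not used in choosing the block. In DC90, 28 of 245 measured members were higher and 32 lower after chilling by the same size rule. These are 11.4% and 13.1%, beside 14.5% and 15.3% of all 23341 BGIOSGA identifiers measured in DC90. In 9311, 30 of 248 were higher and 47 lower, or 12.1% and 19.0%, beside 16.1% and 18.2% of all 23563. The shares were near or below those of all BGIOSGA identifiers. The median log2 response was -0.03 in DC90 and -0.14 in 9311 for the members, and 0.01 and -0.06 for all. Of the members higher after chilling, 16 were so in both lines, which are 57.1% of the DC90 list and 53.3% of the 9311 list. Of those lower, 22 were so in both lines, or 68.8% and 46.8%, and 0 members passed the rule in opposite directions. These overlaps were not counted over all BGIOSGA identifiers, so they are not read as particular to the block.

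The highest response in DC90 belonged to BGIOSGA012895, which went from 1.03 FPKM to 27.4 in DC90 and from 0.819 to 18.2 in 9311. The ratio was 26.6 in DC90 (counting interval 11.1 to 83.3) and 22.2 in 9311 (8.35 to 83.4). BGIOSGA012839 went from 1.15 to 13.1 in DC90, 11.4-fold higher, and from 2.96 to 15.2 in 9311, 5.12-fold higher, with overlapping counting intervals of 5.95 to 24.5 and 3.33 to 8.15. BGIOSGA013019 went from 6.46 to 78.5 in 9311, 12.2-fold higher (9.55 to 15.7), and from 16.7 to 71.7 in DC90, 4.30-fold higher (3.65 to 5.07). The lines differed in its level before chilling and were close after it.

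Among the members lower after chilling, BGIOSGA013063 went from 13.9 FPKM to 0.552 in DC90 and from 14.2 to 0.357 in 9311. It was 25.2-fold lower in DC90 (counting interval 13.1 to 55.8) and 39.7-fold lower in 9311 (18.0 to 109). BGIOSGA013051 went from 52.4 to 6.21 in DC90 and from 27.5 to 5.48 in 9311, 8.44-fold and 5.03-fold lower. BGIOSGA012819 had the lowest ratio in 9311, from 573 to 34.9, 16.4-fold lower (14.3 to 18.9), against a 6.06-fold difference in DC90 from 486 to 80.1 (5.51 to 6.68). BGIOSGA012820, the next number, went from 244 to 18.6 in 9311, 13.1-fold lower (10.6 to 16.4), and from 28.7 to 6.05 in DC90, 4.74-fold lower (3.17 to 7.31). BGIOSGA012818, the number before these, was 3.74-fold lower after chilling in DC90 (2.73 to 5.20) and near the detection limit in 9311. All 3 of these successive identifiers were thus lower after chilling where they were well detected, while their line differences pointed in different directions.

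**Figure D4:**
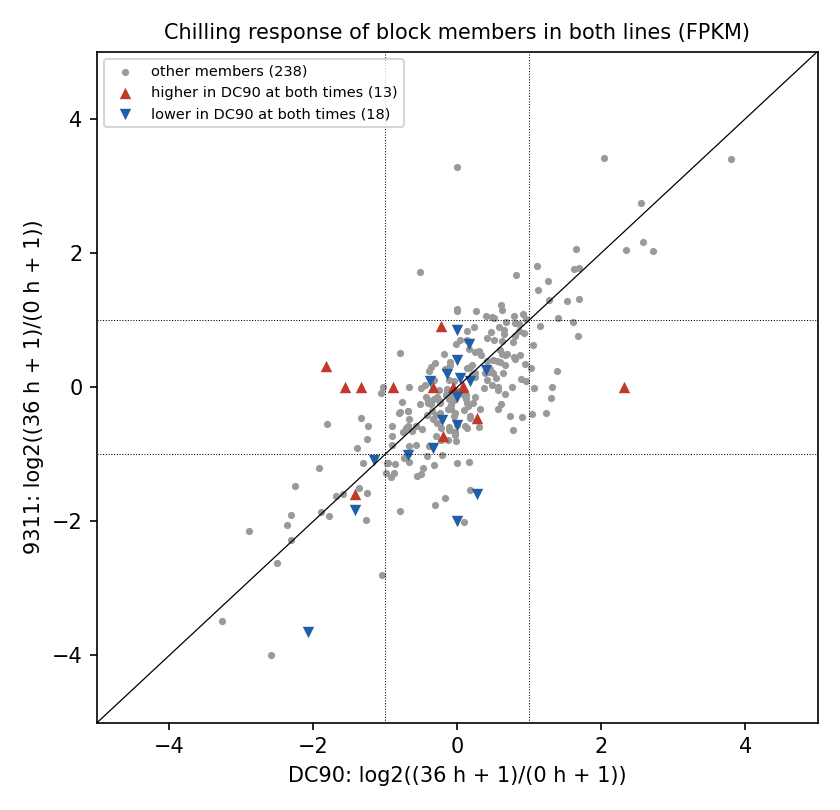
Log2 ratio of 36 h over 0 h (FPKM + 1) in DC90 (horizontal) and 9311 (vertical) for the 269 members, with the identity line and dotted lines at 2-fold. Most members lie along the identity line, and members with a line at or near 0 lie on the axes because their response in that line has no signal.

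Pearson's r between the responses of both lines was 0.76 over the 269 members and 0.88 over the other BGIOSGA identifiers, and it was 0.89 in both sets with at least 5 FPKM in all 4 libraries. Where both lines had signal, the members therefore followed each other across lines about as closely as identifiers elsewhere did. The 205 members past the line rule at neither time had 21 higher and 20 lower of 197 in DC90, together 20.8%, beside 29.8% of all BGIOSGA identifiers. In 9311 they had 22 higher and 33 lower of 200, together 27.5%, beside 34.3%. The shares over all BGIOSGA identifiers include those with a line difference, so the sets are unlike and nothing is read from the gap.

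Among the 31 members with a line difference at both times, the response in the line with the higher level was downward more often than upward. In that line, 10 of 31 were at least 2-fold lower after chilling and 1, BGIOSGA013206, was higher, with a median log2 response of -0.23. The 198 other BGIOSGA identifiers with a line difference at both times had 36 lower and 40 higher and a median of 0.04. These sets are unlike in level and depth. The median 0 h value in the higher line was 18.2 FPKM in the 31 and 8.69 in the 198. Median lengths were 861 and 508.5 bases, and 3 and 30 identifiers had fewer than 20 reads. Of the 10 members, 4 were of the 13 higher in DC90 and 6 of the 18 lower. With at least 5 FPKM required in each comparison the counts were 6 lower and 0 higher of 18, and with a pseudocount of 0.1 they were 14 and 5 of 41. These counts were made after the values were seen, and the difference from the other identifiers was not tested.

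The response of DC90 minus that of 9311 was at least 2-fold upward in 22 members and downward in 12 of 269. These are 8.18% and 4.46%, beside 3.75% and 4.51% of all BGIOSGA identifiers. This difference is made from the same 4 libraries as the line differences that chose the block, and 26 of the 34 members were also past the line rule at 0 h or 36 h. The 22 upward members had a median log2 response of 0.23 in DC90 and -1.13 in 9311. Of them 12 were lower past the rule in 9311 and 7 higher in DC90. The 12 downward members had medians of -0.66 and 0.71. With a pseudocount of 0.1 there were 41 upward and 21 downward.

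Among members with at least 10 FPKM in some library, BGIOSGA013206 stood highest, at 2.32 on the log2 scale, and BGIOSGA012974 came next at 1.999, with 0 in both DC90 libraries and 24.3 and 5.32 FPKM in 9311. Under the same limit BGIOSGA012818 stood lowest at -2.14 and BGIOSGA013107 came next at -1.57. In each of these 4 one line was at or near 0 at both times, so the difference reflects the response of the line that had signal. Below that limit the differences reached -3.27, in BGIOSGA013014, which was singled out after its values were seen. It was listed at 0 in the other 3 libraries and at 8.67 FPKM in 9311 at 36 h. That value rests on at least 12 reads, the smallest number possible, at a recovered length of 127 bases. Among members well detected in both lines, BGIOSGA012819 and BGIOSGA012820 had differences of 1.41 and 1.57. Their values were lower after chilling in both lines, by less in DC90 than in 9311. They were neither alone in this size nor the largest. BGIOSGA012812 was at 1.71, BGIOSGA012769 at 1.44 and BGIOSGA013019 at -1.37, all singled out here after their values were seen. BGIOSGA012954, singled out in the same way, was below 10 FPKM in every library and stood at 2.10, with 7 reads in 9311 at 36 h.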

How the data were processed

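RNA of whole plants was pooled from 3 replicates per line and time, and 3 µg went into 1 library per group, per the labels' protocols. The authors deposited 1 table of FPKM values, and its columns were matched to samples by title. The submitters' processing notes name HTSeq 0.6.1. For the aligner, genome build and annotation, nothing is given in the sources used here. None of the identifiers is in the reference gene table.

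The deposited FPKM values have whole-read steps. Their common step gave each library total, and the smallest length up to 30000 that made the reads of all libraries whole within a tolerance of 1e-07 gave reads and length for 34043 of 34043 identifiers above 0. These are the smallest reads possible, and sum to 97.6% to 97.7% of each total. The procedure was tested on simulated data that took the recovered lengths as true. Such data cannot show a common factor lost in the deposited values. Counting intervals (exact, Clopper-Pearson, 95%) cover counting error only, since PCR reads are not independent molecules, and are too wide where a common factor was lost. A library at 0 was set at 3 reads for a lower bound.

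Ratios are log2((FPKM + 1)/(FPKM + 1)), which understate differences of low values; folds given with a counting interval or a lower bound have no pseudocount. Named members are the 2 highest and 2 lowest per comparison with at least 10 FPKM in the higher library, the block's ends, and those nearest to 1 FPKM. Exceptions are marked where they stand, and include the members nearest to the size rule at both times. Members, rules and comparisons were chosen with earlier results of these data known. EPlOING identifiers were not used beyond the totals and scaling. Python 3.11.15, numpy 2.4.6, pandas 2.3.3 and scipy 1.17.1 were used.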

Additional observations from a re-analysis of the deposited data

How the results depend on the processing

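With 1 pooled library per group, precision is limited by the reads of single libraries and no replicate could be left out. No paired analysis was possible because each group is 1 pooled library. The alternatives were tried for 14 counts of members, for the correlation of the line ratios and for 24 values of named members. No named value changed direction, and the correlation over members lay between 0.82 and 0.85 under these alternatives, but was 0.65 over the 142 members with at least 5 FPKM in all 4 libraries. This correlation, its alternatives and the response of the 31 members in the line with the higher level were chosen after the data were seen. With FPKM of at least 5, the line differences at 0 h had 10 higher and 17 lower members, those at 36 h 14 and 16, those at both times 7 and 11, the downward differences of responses 7, and the responses in the higher line 6 lower and 0 higher. Beyond 4-fold the counts were 8 and 12, 9 and 11, and 7 and 8 for these line differences, 7 higher and 9 lower for the response of DC90, 8 and 9 for that of 9311, 2 upward and 3 downward for the difference of responses, and 0 and 0 in the higher line. These filters leave fewer identifiers by construction. A pseudocount of 0.1 gave 41 upward and 21 downward differences of responses, and 5 higher responses in the higher line; without a low-value filter as well, it also gave 36 members higher in DC90 at 36 h and 49 lower after chilling in DC90. At least 20 reads left 8 members higher at both times and 7 downward differences of responses. Keeping only BGIOSGA012710 to BGIOSGA012820 and BGIOSGA012941 to BGIOSGA013206, or rescaling the libraries, moved no count by over 1.5 times. Equal FPKM sums shifted the median log2 response of DC90 by 0.10, and members higher after chilling then made up 51.7% of its calls, not 46.7%.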
